A study of Mus musculus with 4 samples.

Results

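The cytosolic ribosomal protein genes were chosen by name, as every Rps, Rpl, Rplp or Rpsa symbol of the ribosome of the cytoplasm, without the names ending in -ps that mark pseudogenes. The Illumina matrices held 85 such genes among 27933 gene symbols, 32 of the small subunit and 53 of the large subunit. The Nanopore matrices held 82 of them among 12561 symbols, with 374 of 31986 annotated transcript isoforms. Rpl10l, Rpl3l and Rpl6l were the 3 without a Nanopore row. The data came from the brain of 1 C57BL/6 mouse embryo at stage E18, of which hippocampus, cortex and sub ventricular zone were combined, with no genetic change or treatment. The cells went through a 10x Genomics Chromium chip together, the droplets were divided ahead of cDNA synthesis into aliquots of 190 and 951 cells, and both platforms read the cDNA of both aliquots, Illumina as short reads of the 3′ end and Nanopore as long reads of the full molecule. The 4 libraries therefore come from 1 cell suspension and 1 emulsion, and all p-values measure technical spread between them, not spread between animals. Cells with at least 1400 detected genes were kept, 186 of 190 and 935 of 951, with 1809081 and 8295650 Illumina UMIs (unique molecular identifiers, 1 per captured cDNA) and 993220 and 4889148 Nanopore UMIs. The 2 aliquots shared 13 cell barcodes, of which 12 passed this minimum in each.

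A ribosome is built from ribosomal RNA and one copy of most of these proteins, which makes their mRNAs some of the most abundant and most evenly expressed in a cell. Their transcripts are short, with small first exons that begin with a run of pyrimidines, the 5′ terminal oligopyrimidine tract (TOP), through which their translation is controlled together. A few have paralogs, such as Rpl22l1 for Rpl22 and Rps27l for Rps27, that can take the parent's place in the ribosome. In the developing brain radial glia divide and make neurons, and dividing cells are known for a high demand for new ribosomes.

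Most of the genes lay close together in level. Of the 85, 84 had at least 1 Illumina UMI in the kept cells, and among the 8 highest by mean Illumina level were Rpl41, Rps29, Rpl13a, Rps23, Rpl37a and Rps19. Levels are given as CPM, the UMIs of a gene scaled to a library size of 1000000 UMIs, and since each UMI stands for 1 captured 3′ end they count molecules and not bases. Rpl41, the shortest protein of the large subunit, had 5398 CPM in the 190 cell and 6361 CPM in the 951 cell Illumina library. Rps19, the lowest of these, had 3629 and 3699 CPM. The 8 lowest were mostly paralogs. Rpl22l1 had 659 and 639 CPM, Rpl36al 576 and 613 CPM, Rps27l 353 and 369 CPM, and Rpl7l1 98.4 and 82.0 CPM. Rpl10l had 11 UMIs in the 190 cell library and 0 in the larger one, Rpl39l 0 and 2 UMIs, and Rpl3l, the form of striated muscle, 0 in both. A count of 0 allows up to 3 UMIs per library. Rpl6l stood apart, with 804 CPM in the 190 cell and 223 CPM in the 951 cell Illumina library.

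**Figure D1:**
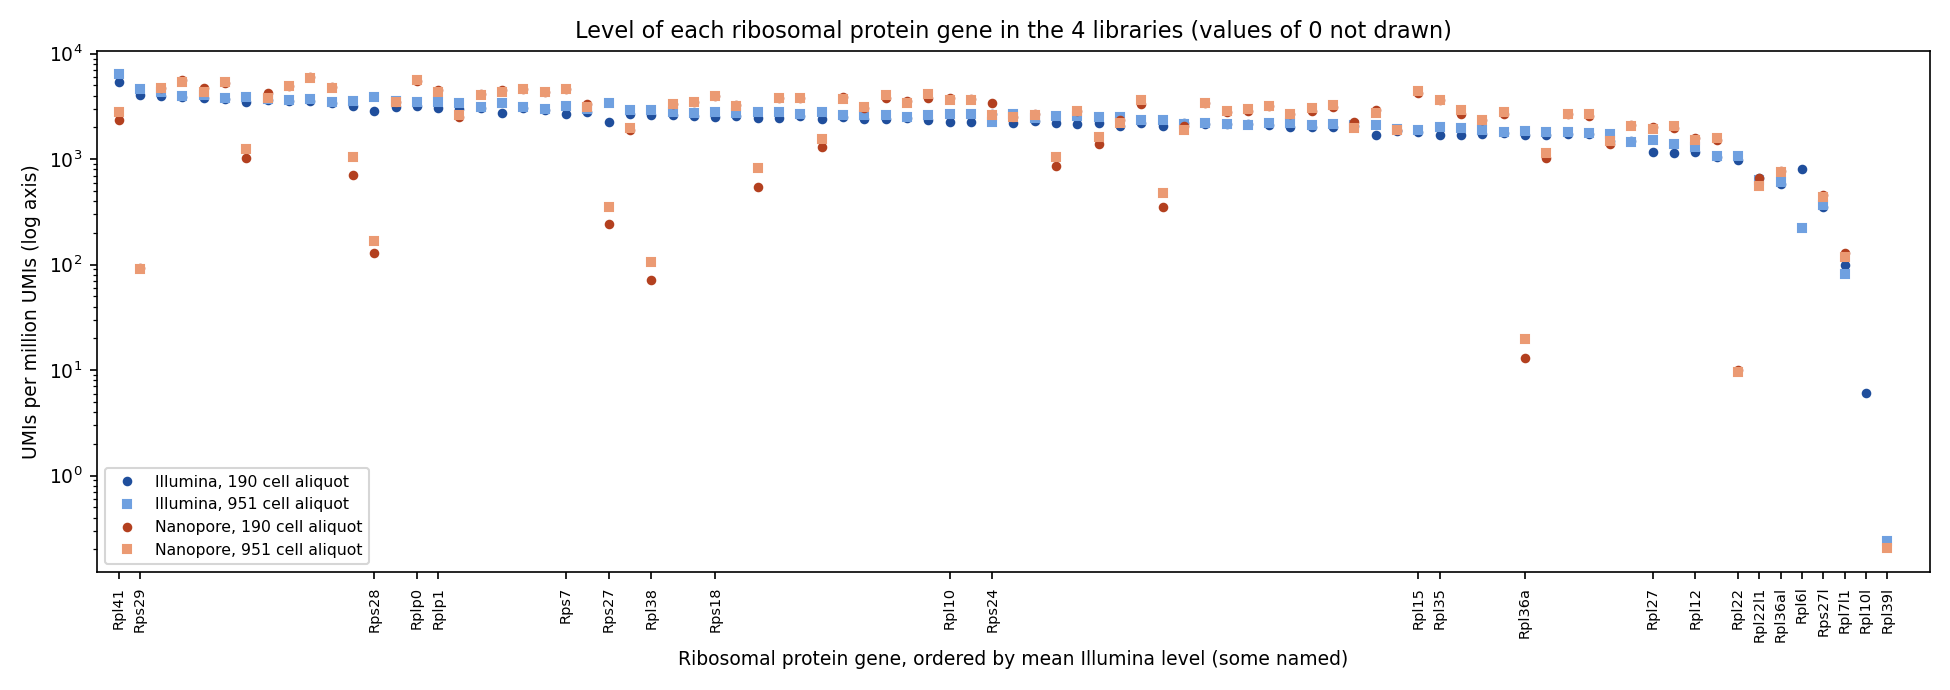
Level of the 85 genes (log axis, CPM) in each of the 4 libraries, in order of the mean Illumina level, blue for Illumina and red for Nanopore, circles for the 190 cell and squares for the 951 cell aliquot. The Illumina points form a shallow slope down to the paralogs at the right, whereas Rps29, Rps28, Rpl38, Rpl36a and Rpl22 fall far below it in both Nanopore libraries.

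The same cDNA gave different levels for these genes on the 2 platforms. For Nanopore the cDNA went through further PCR cycles and a bead purification, for which the paper also gives a setting that depletes short cDNA. Only UMIs that matched an isoform in full were counted there. The part of each of these steps in the differences was not tested. In both Nanopore libraries, 16 of 81 tested genes were lower and 56 higher than in Illumina by edgeR's quasi-likelihood test (adjusted p under 0.05). Over all 9855 genes tested, 30.3% were called lower and 20.2% higher. The median log2 fold change (Nanopore over Illumina) was 0.51 for the ribosomal protein genes and −0.04 for all genes. Scaling by library totals alone lowered the median of all genes by 0.196 and left that of the ribosomal protein genes at 0.32. The 16 lower genes had a median annotated transcript length of 487 nt, the 56 higher genes 882.5 nt and the 9 not called 751 nt.

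Among the ribosomal protein genes, short transcripts were the ones most often lower in Nanopore. Rps29 (chr12:69157722-69159186 of GRCm38, minus strand), a zinc finger protein of the small subunit with a transcript of 390 nt, had 4071 and 4605 CPM in the 2 Illumina libraries against 92.6 and 90.6 CPM in Nanopore, 43.3-fold lower (log2 fold change −5.43, SE 0.11, edgeR adjusted p = 2.26e-05). Rpl38 (457 nt) fell from 2612 and 2925 to 71.5 and 105.5 CPM, and Rps28 (382 nt) from 2889 and 3864 to 129 and 168 CPM. Rps27 (345 nt), the shortest, had 2235 and 3406 CPM in Illumina and 244 and 353 CPM in Nanopore (log2 fold change −3.09, SE 0.29, edgeR adjusted p = 0.00092). That call was lost without either Nanopore library, with adjusted p = 0.125 without the 190 cell and 0.0656 without the 951 cell library. All 5 ribosomal protein genes under 400 nt were called lower, as were 17 of the 22 other genes of that length. From 400 nt to under 500 nt, 4 of 7 were lower against 8 of 39 other genes, from 500 nt to under 600 nt 2 of 13 against 21 of 63, and from 600 nt to under 800 nt 3 of 16 against 48 of 223. From 800 nt to under 1200 nt, 1 of 24 was lower, Rpl37, against 58 of 626. Of 1200 nt or more, 1 of 16 was lower, Rpl22, against 2751 of 8568 other genes (32.1%). Among other genes lower calls were thus not limited to short transcripts. All lengths are those of annotated transcripts and were not measured on the reads. Each gene was placed by its coding transcript with most Nanopore UMIs. No coding transcript of Rpl22 has a Nanopore row, nor has Rpl36a-201, by which Rpl36a was placed at 483 nt. Rpl22 was placed here by its longest coding transcript, of 2051 nt, while the coding Rpl22-201, which shares its introns, has 474 nt.

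The 2 deepest losses had another feature in common. Rpl22 (2051 nt in its longest coding transcript, chr4:152325742-152334071, plus strand) had 992 and 1078 CPM in Illumina and 10.1 and 9.61 CPM in Nanopore. It was 96.0-fold lower (log2 fold change −6.59, SE 0.13, edgeR adjusted p = 2.26e-05). Rpl36a (483 nt, chrX:134585654-134588062, plus strand) had 1705 and 1844 CPM against 13.1 and 19.8 CPM, 89.2-fold lower. A Nanopore UMI was counted for an isoform only where its exon structure matched that isoform. In Gencode vM21, the 3 coding transcripts of Rpl22 share all introns with each other and none of them has a row in the Nanopore matrix. Introns were counted as shared where each end lay within 2 bases. The coding transcript Rpl36a-201 shares all introns with Rpl36a-205, a transcript annotated for nonsense-mediated decay, which has a row while Rpl36a-201 has none. Whether this sets the low counts was not tested. Rpl41-201 shares its introns with Rpl41-203 too, and there both have a row, with 11206 and 1 UMIs. Of the annotated transcripts of ribosomal protein genes, 8 of 27 that share their introns with another had a row, against 366 of 466 others. Over all genes of the Nanopore matrix, 7.2% of 970 such transcripts had a row, against 44.4% of 69675 others.

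The rises were smaller than these falls. Rpl15, a large subunit protein with a transcript of 1922 nt, had 1822 and 1879 CPM in Illumina and 4225 and 4395 CPM in Nanopore, 2.54-fold higher (log2 fold change 1.35, SE 0.08, edgeR adjusted p = 0.00017). Rpl35 followed with 1697 and 2000 against 3637 and 3649 CPM. The stalk protein Rplp0 rose 1.84-fold, Rpl13 1.80-fold, Rpl7a 1.75-fold and Rps2 1.73-fold. Of the 57-base stretches of the 3′ end, 95.9% in Rpl35, 82.8% in Rpl13, 79.1% in Rpl7a and 75.8% in Rps2 also occur in other annotated genes. In Rpl15 and Rplp0 none do. The part of shared stretches in the rises was not tested. In none of these 6 genes did the libraries of the platforms overlap, which largely follows from their choice as the largest calls.

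**Figure D2:**
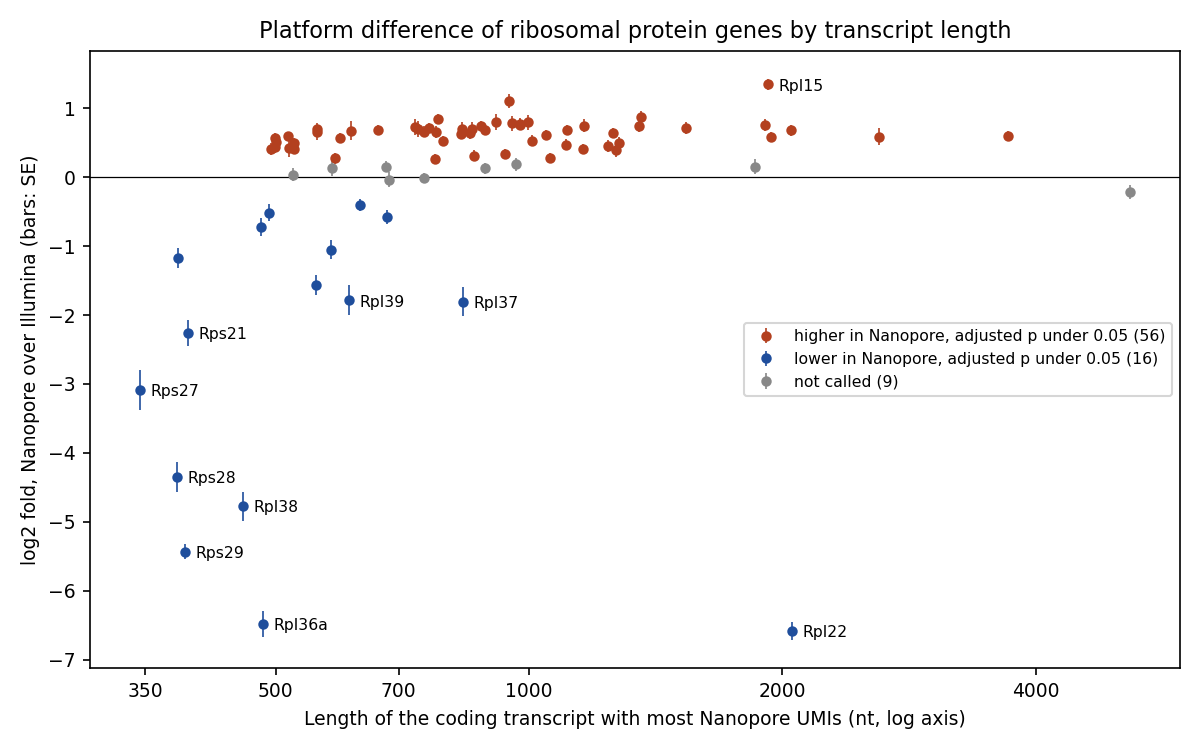
Log2 fold change from Illumina to Nanopore (bars, SE, 2 libraries each) of the 81 tested genes against the length of their coding transcript (nt, log axis), coloured by call. All genes under 400 nt lie below −1, and those over 800 nt lie mostly between 0 and 1.35. Rpl22, drawn at 2051 nt by the longest of its coding transcripts, is at −6.59.

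Among the 6 classes tested, the summed share of the ribosomal protein genes was highest in radial glia-like cells and lowest in mature neurons. They made up 19.2% of the Illumina UMIs of the 190 cell and 21.0% of the 951 cell aliquot, and 22.2% and 22.3% of the Nanopore UMIs. Cells were clustered with the ribosomal protein genes left out of the matrix, so that these genes could not define the classes, and clusters were named by marker genes. The classes named in this way and large enough to test (5 cells or more per aliquot) were radial glia-like cells (20 and 87 cells in the 190 and 951 cell aliquot), cycling radial glia-like cells (24 and 93), immature glutamatergic-like (23 and 127), mature glutamatergic-like (43 and 235), immature GABAergic-like (31 and 143) and mature GABAergic-like neurons (17 and 126). Of the mature glutamatergic-like cells, 139 came from a cluster in which 4 of the 12 markers of the class were raised. Cajal-Retzius-like cells had 13 cells in the larger aliquot and 4 in the other and were not tested, and 135 cells had no name.

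In Illumina, radial glia-like cells held 24.2% and 25.1% ribosomal protein UMIs in the 190 and 951 cell aliquots, cycling radial glia-like cells 20.6% and 23.2%. Immature glutamatergic-like neurons held 18.3% and 20.4% and immature GABAergic-like neurons 19.5% and 20.8%. Mature glutamatergic-like neurons held 17.03% and 19.2%, mature GABAergic-like neurons 16.8% and 18.8%, and the Cajal-Retzius-like cells of the larger aliquot 17.01%. The aliquots of radial glia-like cells did not overlap with those of any other class of this clustering. When the ribosomal protein genes took part in the clustering, radial glia-like cells held 22.3% and 24.04%, overlapping with cycling radial glia-like cells at 20.7% and 23.3%, and an intermediate progenitor-like class appeared with 23.8% and 25.2%. Nanopore gave 27.8% and 26.3% for radial glia-like cells, 19.4% and 20.3% for mature glutamatergic-like and 19.9% and 20.6% for mature GABAergic-like neurons. The Cajal-Retzius-like cells, which were not tested, held 18.9% there and so lay below the mature neurons of the larger aliquot on both platforms. With every cell thinned to 2000 UMIs, the Illumina share of radial glia-like cells was 23.0% and 25.8%. Single cells of the class spread widely, from 18.5% at the 10th to 31.8% at the 90th percentile in the 951 cell aliquot.

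**Figure D3:**
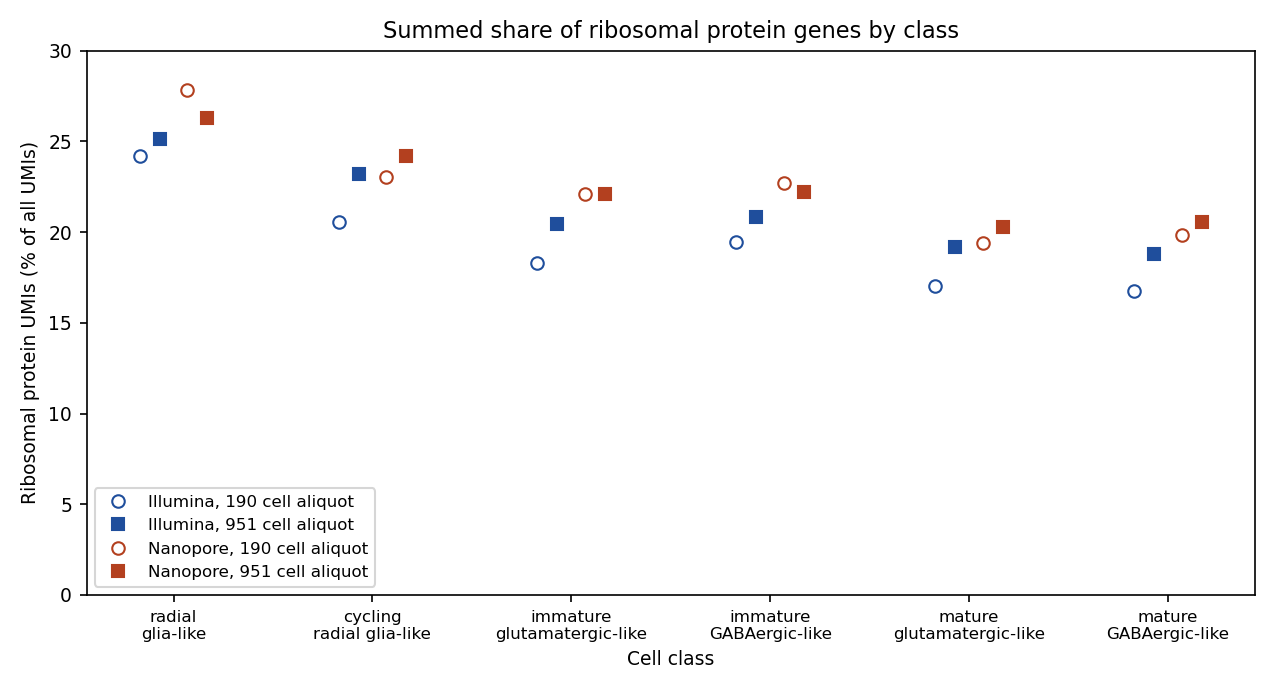
Ribosomal protein UMIs as a percentage of all UMIs of a class (vertical axis from 0) in 6 cell classes, blue for Illumina and red for Nanopore, open circles for the 190 cell and filled squares for the 951 cell aliquot. Radial glia-like cells lie highest on both platforms, at 24.2% to 27.8%, and mature neurons lowest, at 16.8% to 20.6%.

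The 190 cell Illumina library was lower than the 951 cell library in every class, and in 75 of 82 genes, with a median ratio of 0.93. In Nanopore the median ratio of the aliquots was 0.998. Rps27 had the lowest Illumina ratio, 0.656, with 0.691 in Nanopore. Rps28 had 0.748 and 0.768. In Rpl27 the ratio was 0.763 in Illumina and 1.05 in Nanopore. The names ending in -ps went the other way and took 0.757% of the Illumina UMIs of the 190 cell aliquot against 0.288% of the 951 cell aliquot, as did Rpl6l above. Their part in the aliquot difference was not tested. The aliquots were sequenced to unequal depth and had no replicate library on either platform. For genes lower on both platforms, such as Rps27 and Rps28, differences of the cells and of the libraries cannot be told apart. For differences seen in Illumina alone, as in Rpl27, the part of each was not tested.

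Compared with radial glia-like cells, mature glutamatergic-like neurons had lower levels of 48 of the 82 ribosomal protein genes tested and a higher level of none (edgeR adjusted p under 0.05, Illumina counts summed per class and aliquot). Over all 8476 genes 16.6% were called lower and 16.3% higher. The median log2 fold change was −0.42 for the ribosomal protein genes and −0.01 for all genes, and 80 of the 82 values were negative. Of the small subunit 23 of 32 were called, of the large subunit 25 of 50. The number of calls changed with the cells counted as radial glia-like. Of these 107 cells 32 joined the intermediate progenitor-like class when the ribosomal protein genes took part in the clustering, and 31 genes were then called, where 16.8% of all genes were lower. With the cells given the same class by both clusterings 31 were called too, and 33.8% of all genes in either direction. Without the filter on low counts 9 of 84 were called lower, and 10.2% of all genes. Leaving out 1 aliquot left 13 to 33 calls, 13 without the 190 cell mature neurons and 16 without the 951 cell radial glia-like cells. The share over all genes was not taken for the fits without 1 aliquot. Their counts therefore do not show whether the ribosomal protein genes still stood out. With the aliquot as a block 74 were called, and 44.5% of all genes in either direction.

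The 6 largest falls included the stalk proteins Rplp0 and Rplp1 and the paralogs Rpl22l1 and Rps27l. Rpl22l1, the paralog of Rpl22, had 1353 and 1264 CPM in radial glia-like cells and 529 and 519 CPM in mature glutamatergic-like neurons (log2 fold change −1.29, SE 0.17, edgeR adjusted p = 5.49e-08). Rps27l (chr9:66946086-66949516, plus strand), a p53-regulated paralog of Rps27, had 563 and 588 CPM against 238 and 283 CPM (log2 fold change −1.11, SE 0.20, edgeR adjusted p = 1.79e-05). Both were more than 1 log2 unit lower, and no other member reached that size. The stalk proteins Rplp1, at 4805 and 5030 against 2708 and 3156 CPM, and Rplp0, at 4416 and 4502 against 2619 and 2902 CPM, came next with log2 fold changes of −0.72 and −0.66. Rpl18, at 2407 and 2409 against 1410 and 1615 CPM, and Rps24, at 3379 and 2823 against 2072 and 1831 CPM, both had −0.64. In all 6 genes the aliquots of the classes did not overlap, which largely follows from their choice as the largest calls. At the other end, Rpl38 had 2832 and 2824 CPM in radial glia-like cells and 2793 and 3306 CPM in mature glutamatergic-like neurons (log2 fold change 0.14, SE 0.15, adjusted p = 0.54), and Rps7 had 2755 and 3085 against 2671 and 3198 CPM.

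Mature GABAergic-like neurons had lower levels of 59 of the 82 genes than radial glia-like cells and a higher level of none, where 15.9% of all genes were lower and 14% higher. The median log2 fold change was −0.56 against −0.03 over all genes, and all 82 values were negative. The small subunit had 23 of 32 genes called and the large subunit 36 of 50. This comparison shares its radial glia-like cells with the one above, and for its fits without 1 aliquot the share over all genes was not taken. Leaving out 1 aliquot left 40 to 61 calls, and the aliquot block gave 76, with 37.6% of all genes. Rpl22l1 fell furthest, from 1353 and 1264 to 270 and 250 CPM (log2 fold change −2.43, SE 0.18, edgeR adjusted p = 1.65e-13). Rps27l fell from 563 and 588 to 135 and 228 CPM (log2 fold change −1.63, SE 0.21, edgeR adjusted p = 1.13e-07). Rpl41 had 8002 and 8773 against 3380 and 4697 CPM, Rpl12, a protein of the stalk base, 1767 and 1778 against 788 and 946 CPM, and Rps18 3720 and 3926 against 1721 and 2129 CPM. Their log2 fold changes were −1.14, −1.11 and −1.08. Rpl36al, at 733 and 740 against 363 and 403 CPM, had −1.02, where its value in the glutamatergic comparison was −0.22 (adjusted p = 0.36). Rpl23a (−0.04) and Rpl7 (−0.09) had the values nearest to 0.

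**Figure D4:**
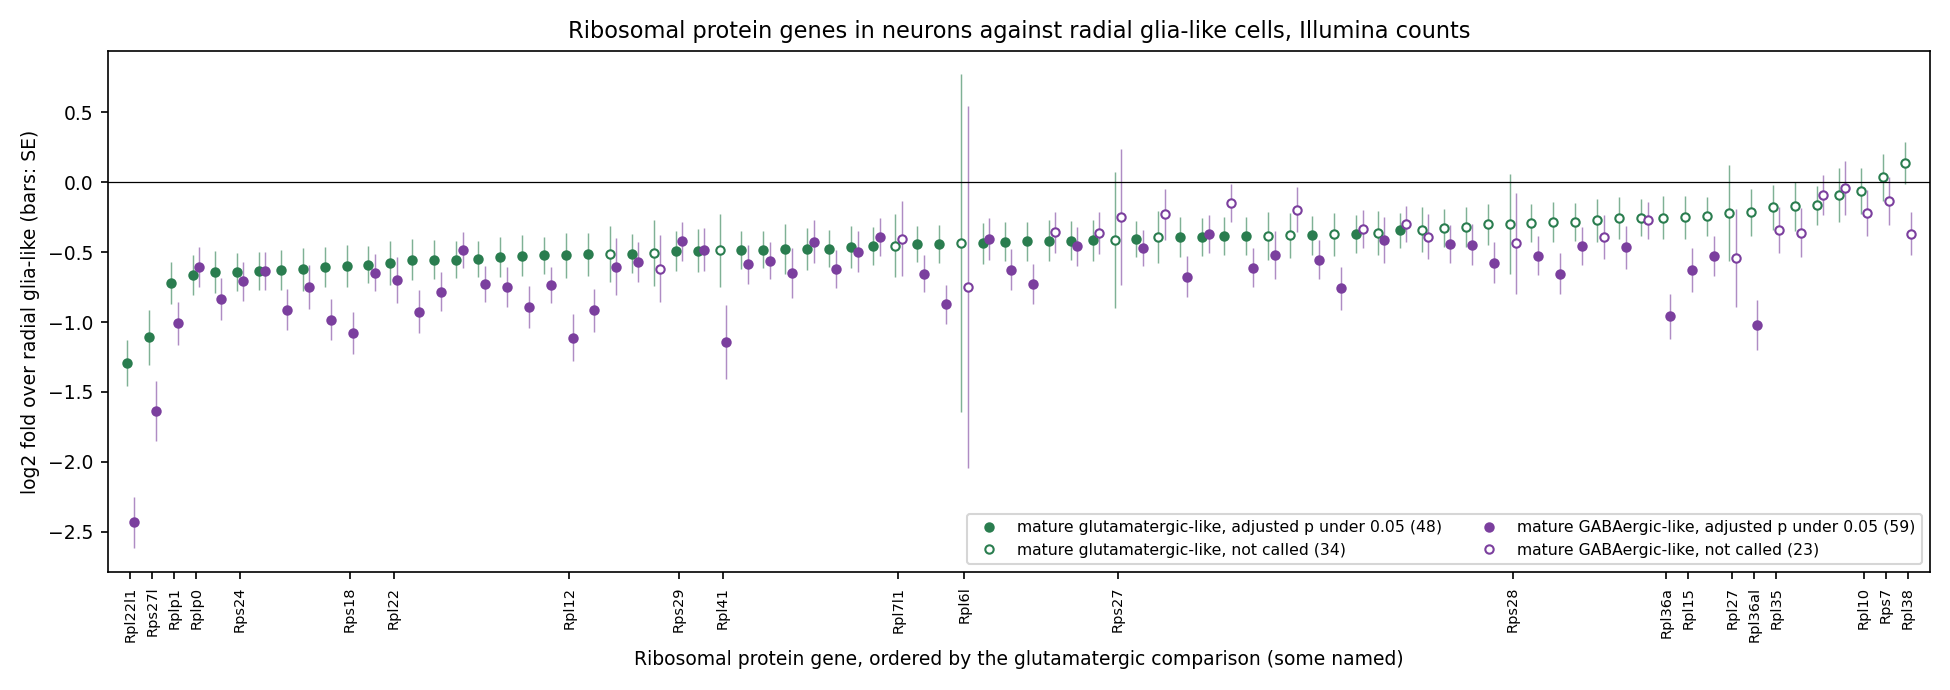
Log2 fold change over radial glia-like cells (bars, SE) of the 82 tested genes in mature glutamatergic-like (green) and mature GABAergic-like (purple) neurons, filled where adjusted p was under 0.05, Illumina counts, 2 aliquots per class. Nearly all points lie between 0 and −1.2, Rpl22l1 and Rps27l at the left lie lowest in both, and the wide bars belong to Rpl6l, Rps27, Rps28 and Rpl27.

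Nanopore counts, from long reads of the same cDNA, also put Rpl22l1 and Rps27l furthest down. The authors kept a Nanopore UMI only where the Illumina data held a match in that cell, by gene or by stretch of genome. The Nanopore counts therefore cover largely the same captured molecules, summed over the same classes, and are no independent test of the falls. Of 79 genes tested, 59 were lower in mature glutamatergic-like and 61 in mature GABAergic-like neurons, with medians of −0.44 and −0.59, where 39.8% and 36.4% of all genes were called in either direction. Rpl22l1 had log2 fold changes of −1.41 and −2.49 and Rps27l −1.21 and −1.62 in Nanopore. In the 951 cell aliquot, 6 cells of the radial glia-like class had at least 10 UMIs of microglia (3 cells) or blood vessel markers (3 cells). Without them 40 and 56 genes were lower in the Illumina counts, and 16.1% and 15.7% of all genes. Median UMIs per cell differed between the classes, with 9874 and 10177 in radial glia-like cells, 13128 and 11241 in mature glutamatergic-like and 5817 and 4892 in mature GABAergic-like neurons. After thinning every cell to 2000 UMIs, 34 and 47 genes were called lower, and 11.1% and 12.2% of all genes. The part of depth in the remaining differences was not tested.

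In the other comparisons few members were called, which does not show that the rest were unchanged. Between cycling radial glia-like and radial glia-like cells 66 of 82 values were negative. The median log2 fold change was −0.11, against 0.04 over all genes. Between mature and immature glutamatergic-like neurons 50 values were negative and 32 positive, with a median of −0.04. Cycling radial glia-like cells were called lower than radial glia-like cells in Rpl22l1 alone, with 879 and 837 against 1353 and 1264 CPM (log2 fold change −0.55, SE 0.17, edgeR adjusted p = 0.024), where 4.68% of all genes were called lower and 6.02% higher. That call was lost without doublets (adjusted p = 0.053), without the barcodes found in both aliquots (0.079) and when either aliquot of either class was left out (0.14 to 0.18). With the aliquot block 15 genes were called lower (20% of all genes in either direction) and in Nanopore counts 12 (15.7%). Between mature and immature glutamatergic-like neurons edgeR called 0 of 82 members in either direction, where 2.68% of all genes were higher and 1.92% lower. An unadjusted p under 0.05 was found for 4 members and DESeq2 called 0. The aliquot block called 4 higher (Rpl41, Rpl38, Rps3 and Rps3a1) and 3 lower, Rps9 and Rps21 among them, with 11.8% of all genes. Nanopore counts called 1 lower, with 6.36% of all genes.

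In the Illumina counts, the change from immature to mature neurons was called as different between the lineages for Rpl22l1 alone. The genes most raised in the immature GABAergic-like cluster included Ebf1, Isl1 and Foxp2, and those in the mature one Sst, Maf and Npy. These clusters may hold different neuron types, so maturation and neuron type cannot be told apart here. Rpl22l1 stood at 391 and 471 CPM in immature and 529 and 519 CPM in mature glutamatergic-like neurons. In GABAergic-like neurons it stood at 333 and 381 CPM in immature and 270 and 250 CPM in mature ones. The difference of the log2 changes was 0.94 (SE 0.25, edgeR adjusted p = 0.031), where 1.39% of all genes were called higher and 0.755% lower. DESeq2 (adjusted p = 0.17), library totals alone (0.051) and thinned cells (0.36) did not call it, nor did the fit after leaving out 1 aliquot, except for the 951 cell immature glutamatergic-like and the 190 cell immature GABAergic-like neurons. The aliquot block called 17 members higher, with 6.01% of all genes in either direction. Nanopore counts did not call Rpl22l1 (adjusted p = 0.0548) and called 4 other members, Rpl36al, Rpl8, Rps3a1 and Rps6, with 2.77% of all genes. Over the 82 genes 80 differences were positive with a median of 0.26, against 0.04 over all genes. By CPM, 53 of the 82 had the same direction in both aliquots. With scaling by library totals alone the medians were 0.05 for the ribosomal protein genes and −0.134 for all genes.

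Rpl22l1 was about as abundant as its parent Rpl22 in radial glia-like cells and less abundant in neurons. In radial glia-like cells Rpl22l1 had 104% and 92.2% of the Rpl22 level in the 2 aliquots (of the 57-base stretches of its 3′ end 58.6% also occur in other annotated genes, of those of Rpl22 none), in cycling radial glia-like cells 76.7% and 65.5%, and in mature glutamatergic-like neurons 63.1% and 56.2%. Immature glutamatergic-like neurons had 41.8% and 43.7%, immature GABAergic-like neurons 33.1% and 33.3%, and mature GABAergic-like neurons 30.6% and 28.2%. Rpl22 itself had 1305 and 1371 CPM in radial glia-like cells, 839 and 923 CPM in mature glutamatergic-like and 881 and 887 CPM in mature GABAergic-like neurons. Its log2 fold changes were −0.58 (edgeR adjusted p = 0.0039) and −0.70 (0.00089), so both genes of the pair were lower in neurons. The difference between their changes was not tested.

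The other pairs showed several patterns. Rps27l had 22.7% and 14.7% of the Rps27 level in radial glia-like, 26.7% and 17.4% in cycling radial glia-like and 6.10% and 6.37% in mature GABAergic-like cells, while Rps27 was not called (log2 fold change −0.41, SE 0.49 and −0.25, SE 0.49). Rps27 is also the gene with the lowest ratio of the 190 to the 951 cell aliquot, and its 3′ end shares all 57-base stretches with other annotated genes. Rpl36al kept between 27.5% and 37.0% of the Rpl36a level in all 6 classes and both aliquots, with 69.3% of the 57-base stretches of its 3′ end and all of those of Rpl36a found in other annotated genes too. Rpl7l1 stayed between 2.90% and 5.25% of Rpl7 (72.95% shared). Rpl10l reached at most 0.516% of Rpl10, whose stretches are all shared, and Rpl39l had 2 UMIs beside 7125 of Rpl39 in the mature glutamatergic-like neurons of the larger aliquot. Rps4x had no paralog row.

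The start sites of the parents and paralogs are shown because the TOP tract is the sequence feature for which this gene family is known. RefSeq entries (GRCm38.p6) existed for 64 of the 85 genes. The windows run from 10 bases before to 20 bases into the annotated transcript, with the longest run of C and T in capitals.
Rpl22l1, chr3:28805498-28805527, plus strand: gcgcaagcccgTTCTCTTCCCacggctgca
Rpl22, chr4:152325716-152325745, plus strand: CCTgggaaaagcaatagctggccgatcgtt
Rps27l, chr9:66946076-66946105, plus strand: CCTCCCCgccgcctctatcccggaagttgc
Rps27, chr3:90213629-90213658, minus strand: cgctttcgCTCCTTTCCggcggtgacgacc

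The paralog Rpl22l1 has a run of 10 C and T letters beginning at the second base of the transcript, and Rps27 a run of 9 that spans its start. Rpl22 and Rps27l, by these annotated starts, hold no run of 8 or more. For Rpl22 the start used lies at 152325726, upstream of the Gencode locus, which begins at 152325742. Most of its window is thus outside that locus. Of the 64 genes 24 (37.5%) held a run of at least 8 C or T letters on the transcript strand of this window, against 13.01% of 27025 genes. Rpl27a had the longest with 20 letters, followed by Rpl35 with 18 and by Rpl15 and Rpl7a with 17. A run is a stretch of letters near an annotated start, whose position may be off by several bases.

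Lists of other genes of protein synthesis had medians nearer to 0. Over all genes 16.6% were called lower and 16.3% higher in mature glutamatergic-like neurons, and 15.9% and 14% in mature GABAergic-like neurons. The lower calls of the biogenesis and mitochondrial lists below made up smaller shares than these. Of 18 translation factors and related genes, listed as known for TOP tracts, 3 were lower and 1 higher in mature glutamatergic-like neurons. In mature GABAergic-like neurons 6 were lower and 1 higher, and the medians were −0.14 and −0.35. Of 14 genes of this list with a RefSeq entry, 3 (21.4%) held a run of at least 8 C or T letters in the window above. Eef1d, a subunit of the elongation factor 1 complex, had log2 fold changes of −1.50 and −1.77, and Npm1, the nucleolar chaperone nucleophosmin, −0.60 and −0.79, whereas the helicase Eif4a2 had 1.27 and 0.80. Of 34 ribosome biogenesis genes 4 and 5 were lower and 1 higher in each, medians −0.08 and −0.36, and of 74 mitochondrial ribosomal proteins 9 and 11 were lower and 0 higher, medians −0.19 and −0.31. Mrpl17 fell most among the latter, by 1.31 and 1.82 on the log2 scale. Of the 3 further cytosolic subunits, which do not carry an Rp name, 0 and 1 were lower, the 1 being Gnb2l1 (Rack1) at −0.49.

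At the isoform level most of these genes were read as 1 main transcript, and where there were 2 they usually differed at the 5′ end. Isoforms were named as in Gencode. Of the 82 genes 40 had at least 2 isoforms with 5% or more of at least 100 UMIs in a library or class, which gave 45 minor isoforms. In 31 of the 45 the minor isoform lacked only introns at the 5′ end of the major isoform. In 17 of these the annotated start lay within exon 1 of the major isoform, in 13 within its intron 1 and in 1 within its exon 2. In a further 5 the minor isoform had more 5′ introns than the major, and in 4 the first intron alone differed. The coding region had the same length in 25 of the 45. By shares of the whole libraries, 94.9% of 39 minor isoforms of 37 ribosomal protein genes differed from the major at the 5′ end only, against 26.1% of 2661 minor isoforms of 1736 other genes. Lacking 5′ introns only applied to 74.4% and 10.8%. A transcript that starts downstream and a shortened cDNA with the same exon structure cannot be told apart here.

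Near-equal pairs were the exception. Rpl27-202, which starts within exon 1 of Rpl27-201, held 49.3% and 45.2% of Rpl27 UMIs in the 190 and 951 cell aliquots, and Rpl37a-204 held 46.0% and 44.4% of Rpl37a. Rps27a-201 held 38.7% and 32.3%, Rps26-202 37.7% and 33.9%, Rpl31-201 34.6% and 34.2%, Rpl41-206 33.3% and 28.6% and Rpl28-202 30.2% and 32.0%. Among the 40 genes with 2 or more isoforms of at least 5%, Rpl37 was the 1 whose main isoform is not annotated as coding. It had 61.5% and 57.9% for Rpl37-205, a retained intron form, and 37.2% and 40.7% for the coding Rpl37-201. Rpl22 and Rpl36a, with under 100 Nanopore UMIs in each library, were not among these genes. Minor isoforms between 10% and 30% in at least 1 aliquot belonged to Rpl11, Rpl15, Rpl23a, Rpl30, Rpl35a, Rpl38, Rpl8, Rps10, Rps14, Rps15, Rps18, Rps2, Rps7 and Rps9, and also to Rps28, whose Rps28-201 (30.5% and 25.5%) differs at the last intron. Rpl10-201 is described below. Smaller ones belonged to Rpl14, Rpl22l1, Rpl24, Rpl29, Rpl32, Rpl34, Rpl35, Rplp2, Rps12, Rps13, Rps24, Rps25, Rps27, Rps6 and Rpsa.

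Rpl10, the X-linked protein next to the peptidyl transferase centre, was the gene whose isoforms differed most between aliquots. Rpl10-202 held 82.8% of Rpl10 UMIs in the 190 cell and 68.1% in the 951 cell aliquot. Rpl10-201, which has a further 5′ intron and the same coding length, held between 14.5% and 18.03% in the 6 classes of the smaller aliquot and between 29.5% and 33.5% in those of the larger, so that no class bridged the gap. For 77 genes with at least 100 UMIs in both aliquots the median difference of the main isoform's share was 0.428 percentage points, and 6 genes differed by 5 points or more. The main share was lower in the larger aliquot in 47 genes and higher in 25. Unequal sequencing depth, separate Nanopore preparation and the cells themselves cannot be told apart in these differences.

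Isoform usage between classes was called as changed in few of these genes. Among 51 ribosomal protein genes with at least 2 isoforms left after filtering, edgeR's diffSpliceDGE called 4 in mature glutamatergic-like neurons relative to radial glia-like cells (Rpl21, Rpl24, Rpl15 and Rps20), where 18.6% of 629 genes were called. It called 5 in mature GABAergic-like neurons relative to radial glia-like cells (Rpl22l1, Rpl15, Rps20, Rpl21 and Rps12), where 14.5% were called, and 0 between mature and immature glutamatergic-like neurons, where 1.75% were called. The aliquot block gave 7, 6 and 2, with 26.7%, 18.3% and 6.20% of all genes. Leaving out 1 aliquot left 2 to 3 and 0 to 4 calls. In the glutamatergic comparison 2 were left without the 951 cell radial glia-like cells and without either aliquot of the neurons. In the GABAergic comparison 0 were left without the 951 cell mature GABAergic-like neurons and 1 without the 951 cell radial glia-like cells. For Rpl21 the glutamatergic call held in each of these, with a highest adjusted p of 0.049, and each other call was lost in at least 1 of them. The share over all genes was not taken for the isoform fits without 1 aliquot. Without the filter on low counts Rpl21 and Rps24 were called in the glutamatergic and Rpl22l1 and Rps24 in the GABAergic comparison.

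The shifts were of a few percentage points except in Rpl22l1. Rpl21-201 held 99.5% and 99.2% of Rpl21 in radial glia-like cells and 97.5% and 96.1% in mature glutamatergic-like neurons, and Rpl21-203 went from 0.243% and 0.314% to 1.48% and 2.70% (edgeR adjusted p = 2.58e-06). Rpl24-204, which starts within exon 1, held 4.87% and 6.46% of Rpl24 in radial glia-like cells and 10.2% and 9.42% in mature glutamatergic-like neurons (edgeR adjusted p = 0.0095). That call was lost with the members in the clustering (adjusted p = 0.054), without the filter on low counts (0.65) and after leaving out 1 aliquot (up to 0.133). Rpl15-201 held 2.15% and 2.46% of Rpl15 in radial glia-like cells, 1.77% (21 of 1184 UMIs) and 1.2% (81 of 6481) in mature glutamatergic-like and 0.610% and 1.33% in mature GABAergic-like neurons. Rps12-201 held 1.64% and 0.475% of Rps12 in radial glia-like cells and 3.39% and 2.24% in mature GABAergic-like neurons. The main isoform Rps20-203 went from 99.1% and 99.4% to 98.4% and 98.7% in mature glutamatergic-like neurons (edgeR adjusted p = 0.0497), a call lost without doublets (0.074), without microglia or vessel cells (0.058), with the members in the clustering (0.108), with cells of the same class in both clusterings (0.104) and without the filter (0.396). In mature GABAergic-like neurons the calls of Rps12 (0.118) and Rps20 (0.053) were lost with the members in the clustering.

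Rpl22l1 lies at chr3:28805436-28807424 on the plus strand of GRCm38. Its main isoform Rpl22l1-206 has 4 exons and 363 coding bases. Rpl22l1-204 also has 4 exons, is annotated for nonsense-mediated decay and has 192 coding bases. Relative to Rpl22l1-206 it carries 3 further bases at the start of an exon and 67 further bases at the start of the next. The sequences around both, taken from the Gencode vM21 transcript, show with capitals the bases that Rpl22l1-206 lacks, for the second insertion its first 18.
Rpl22l1-204, first insertion (chr3:28806500-28806502): aacatggcgccgCAGaaagacaagaag
Rpl22l1-204, start of the second insertion (chr3:28806670-28806736): tctggaaattttGGTACCTTCCCTAGTGAC

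Rpl22l1-204 held 3.66% and 3.08% of Rpl22l1 UMIs in radial glia-like cells (7 of 191 and 23 of 746) and 16.7% and 20.5% in mature GABAergic-like neurons (3 of 18 and 16 of 78), the class in which the gene's level was lowest. The change in usage had an edgeR adjusted p of 0.00011, and over the fits that left out 1 aliquot the highest was 0.37. In mature glutamatergic-like neurons Rpl22l1-204 held 6.90% and 4.803%, with intervals that overlap those of radial glia-like cells (adjusted p = 0.20). In immature GABAergic-like neurons it held 12.9% and 8.33% and in immature glutamatergic-like neurons 18.9% (7 of 37) and 5.88%. The values rest on few UMIs. In the 190 cell aliquot the exact 95% interval for mature GABAergic-like neurons ran from 3.58% to 41.4%. Both aliquots of this class, with 18 and 78 UMIs, lie below the minimum of 100 UMIs used above for isoform shares. Among the class values that reach it, Rpl22l1-204 held between 3.08% and 8.33%.

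Rps24, a small subunit protein mutated in Diamond-Blackfan anaemia, was read with other last coding bases in a few cells with markers of another lineage. Rps24 lies at chr14:24487125-24496959 on the plus strand. Its isoforms differ in small exons before the stop codon, so that the protein ends differ by a few residues. The last 30 coding bases of the 3 isoforms are shown from the Gencode vM21 transcripts, with the bases after the shared stretch in capitals. Each run is spliced over the interval given.
Rps24-202, chr14:24493467-24495432: aaggccaatgttggtgctggcaaaaagTGA
Rps24-205, chr14:24493470-24494057: gccaatgttggtgctggcaaaaagAAATGA
Rps24-210, chr14:24493476-24495786: gttggtgctggcaaaaagCCAAAGGAGTAG

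Rps24-202 was the main form in all 6 classes, with 96.6% to 100% in 11 of 12 values by class and aliquot. The radial glia-like class of the 951 cell aliquot was at 91.6%, and there Rps24-210 held 5.42% (124 of 2286 UMIs) against 0.677% (4 of 591) in the 190 cell aliquot. Of these 124 UMIs, 100 came from the 3 cells with microglia markers, in which 45 of 49, 41 of 42 and 14 of 16 Rps24 UMIs were Rps24-210. The 3 cells had 196, 221 and 77 microglia marker UMIs and 0 vessel marker UMIs. Together they held 93.5% Rps24-210 (100 of 107, exact 95% interval 87.0% to 97.3%). The 3 cells with vessel markers held 8.06% (10 of 124, interval 3.94% to 14.3%), with 3 of 15, 7 of 39 and, in a cell with 60497 Illumina UMIs, 0 of 70. The 937 barcodes of this aliquot without such markers held 0.451% (58 of 12850) and the 187 of the smaller aliquot 0.373% (13 of 3488). In the same groups of barcodes Rps24-205 held 1.33% and 0.803%. Cells are not replicates, so these intervals cover counting error only and no test was made.

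The test of Rps24 usage between classes depended on whether Rps24-210 passed the filter on low counts. In the main comparison it did not, Rps24-202 and Rps24-205 alone were tested, and Rps24 was not called in mature glutamatergic-like (edgeR adjusted p = 0.174) or mature GABAergic-like neurons (0.989). Rps24-210 was among the 3 isoforms tested without doublets, and Rps24 was then called in both (1.53e-07 and 0.00113). It was called too with the members in the clustering (2.51e-09 and 7.61e-05), with cells of the same class in both clusterings (9.6e-09 and 0.000122) and, over 9 isoforms, without the filter (1.26e-08 and 0.00777). Without the cells with microglia or vessel markers Rps24-210 did not pass the filter, and the adjusted p was 0.0631 and 0.802.

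**Figure D5:**
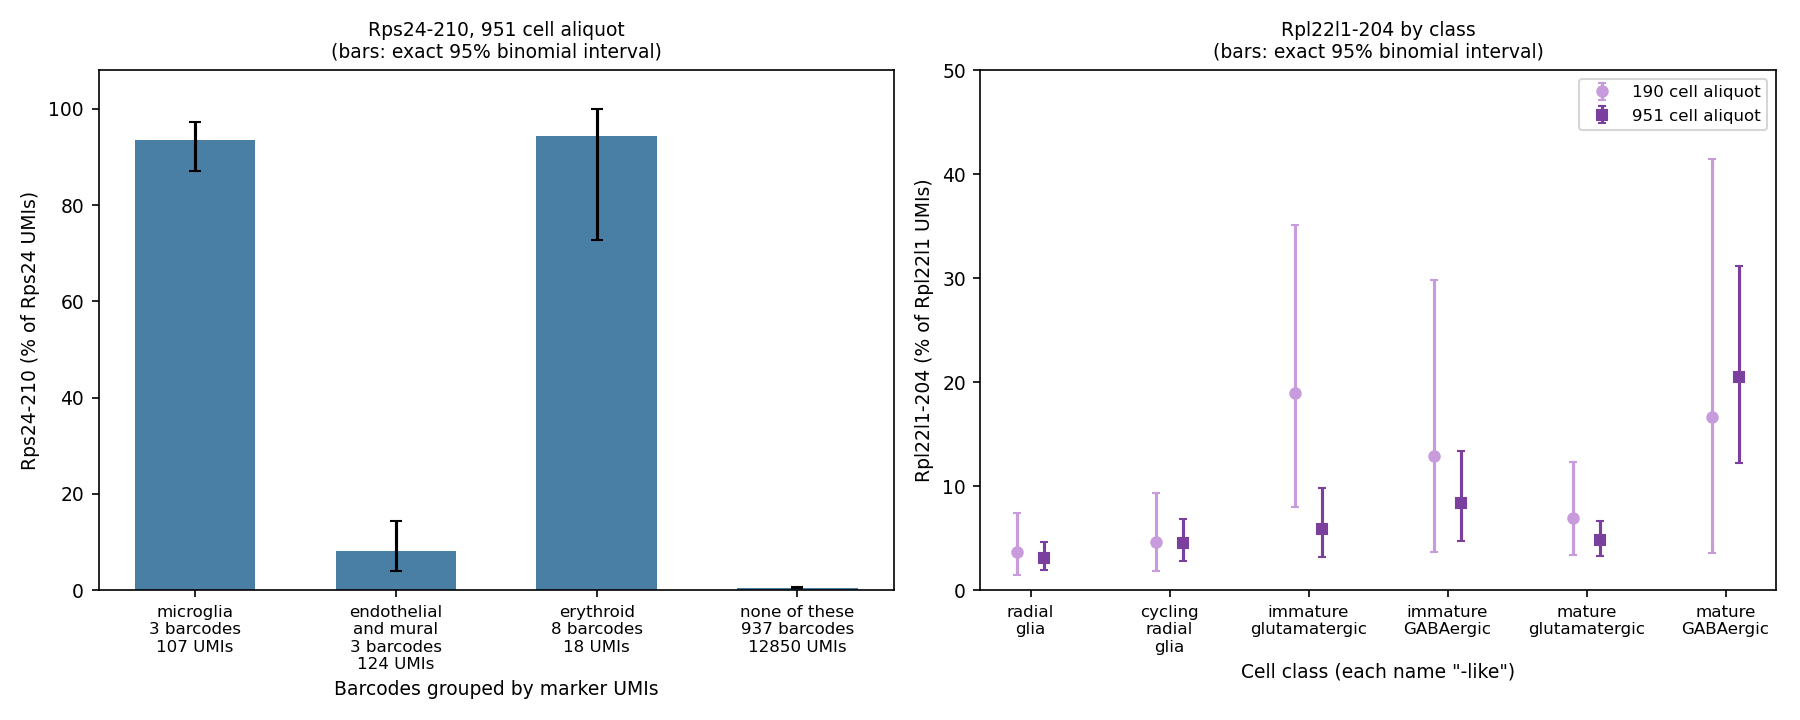
Left, Rps24-210 as a percentage of Rps24 Nanopore UMIs in barcodes of the 951 cell aliquot grouped by marker UMIs, and right, Rpl22l1-204 as a percentage of Rpl22l1 UMIs in 6 classes and both aliquots (points), both with exact 95% binomial intervals. Rps24-210 stands above 93% in the barcodes with microglia or erythroid markers and under 1% in those without markers, and Rpl22l1-204 is highest in mature GABAergic-like neurons of the 951 cell aliquot, with wide intervals.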

How the data were processed

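The authors mapped the Illumina reads to mm10 and counted UMIs per gene and cell with Cell Ranger 2.0 (10x Chromium 3′ v2). They amplified the same cDNA again for Nanopore and assigned Nanopore consensus reads to Gencode vM18 isoforms with minimap2 and Sicelore where the exon structure matched in full, leaving out reads of mapping quality 0. Cell barcodes and UMIs of Nanopore reads were accepted only by comparison with those that Illumina had found. The deposited values of both platforms are raw UMI counts, each aliquot on its own. Cell Ranger's version is from the submitters' processing notes. The Nanopore gene count used here is the sum over a gene's isoforms.

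Kept cells (186 and 935, medians of 8048.5 and 7551 Illumina UMIs and 4394 and 4487 Nanopore UMIs) were clustered with Seurat 5.3.0 (CCA integration) without the ribosomal protein genes. Clusters were named by marker lists, and scrublet in scanpy 1.11.5 marked 3 and 4 doublets, which stayed in. Counts summed per class or library were tested with edgeR 4.0.16 (TMM, filterByExpr, robust quasi-likelihood test, diffSpliceDGE for isoforms, R 4.3.3), with Benjamini-Hochberg adjustment over all genes tested and a threshold of 0.05. The scripts were tested on simulated data. With the ribosomal protein genes changed 1.25-fold, the glutamatergic comparison called 1.22% of them, and with a 1.5-fold change 56.1%. A gene that was not called is therefore not shown to be unchanged. Intervals are exact binomial 95% intervals and, like the limit of 3 counts for a count of 0, cover counting error only.

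The 2 aliquots are the replicates, and aliquot numbers pair the samples, since both platforms read the same cDNA and all classes of an aliquot the same emulsion. Deviations of the platforms within an aliquot correlated at 0.597, those of the classes at 0.15 to 0.342 (15 pairs, median 0.213). Fits with the aliquot as a block were an alternative, as were DESeq2 1.42.0, no filter, library totals, thinning to 2000 UMIs, Nanopore counts, clustering with the members and leaving out each replicate or the doublets. Transcript structures came from Gencode vM21 (GRCm38), in which all 374 isoforms were found. Members and lists were chosen with earlier results of these data known. Named were the 8 highest and 8 lowest members, the 6 largest calls in each direction, the paralog pairs, members with 2 or more isoforms of at least 5%, members called for isoform usage, and Rps24. The genes named as least changed, or as called only by an alternative, were chosen after their values were seen. The values of a few members are not reported here.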

Additional observations from a re-analysis of the deposited data

Results flagged for a closer look

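The log2 change of Rpl22l1 from immature to mature neurons was higher in the glutamatergic than in the GABAergic lineage by 0.945 (edgeR interaction test, adjusted p = 0.031). The GABAergic-like classes may hold different neuron types, so maturation and neuron type cannot be told apart. Rpl22l1 was the 1 member called as different between lineages in the Illumina fit without a block. The difference kept its direction under each alternative tried, between 0.752 and 1.246. In the Nanopore counts the edgeR adjusted p was 0.0548. DESeq2, library totals alone, thinned cells, no filter on low counts and most fits without 1 aliquot did not call Rpl22l1 either. The aliquot block called 17 members and the Nanopore counts 4 others.

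Outside the kept cells, 8 barcodes of the 951 cell aliquot with at least 1000 UMIs of haemoglobin and other erythroid genes lay below the minimum of 1400 genes. In these Rps24-210 was 94.4% of Rps24 UMIs (17 of 18, exact 95% interval 72.7% to 99.9%). The 3 such barcodes of the 190 cell aliquot had 1 Rps24 UMI, which was Rps24-210. No test was made, since these barcodes have no replicate.

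The 16 names ending in -ps, which the choice of genes left out, held 0.757% of the Illumina UMIs in the 190 cell and 0.288% in the 951 cell aliquot. In Nanopore they held 0.189% and 0.0989%. Rpl13a-ps1 had 1003 Illumina UMIs in the smaller and 75 in the larger aliquot.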

How the results depend on the processing

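Platform calls stayed within 1.5 times under every alternative run, with 53 to 57 higher and 14 to 17 lower when 1 library was left out. Calls lower in mature glutamatergic-like neurons (48) became 74 with the replicate block, 9 without a filter on low counts, and 31 both with the members in the clustering and with cells of the same class in both clusterings, an alternative chosen after seeing the data like those on shared barcodes and on microglia or vessel cells. Leaving out 1 aliquot gave 13 to 33. For mature GABAergic-like neurons (59) it gave 40 to 61. The cycling comparison (1 lower) gave 15 with the replicate block, 6 with library totals, 12 with Nanopore counts, and 0 without the filter, without doublets, thinned, without shared barcodes and without any 1 aliquot (0 to 0). Mature against immature glutamatergic-like neurons (0) gave 4 higher and 3 lower with the replicate block, 2 lower with library totals, 1 lower with Nanopore counts, and 0 to 0 without 1 aliquot. The lineage difference (1 higher) gave 17 with the replicate block, 4 with Nanopore counts, 0 with DESeq2, no filter, library totals or thinning, and 0 to 3 without 1 aliquot. Isoform calls gave 7 with the replicate block and 2 without a filter (glutamatergic, 2 to 3 without 1 aliquot), 2 without a filter (GABAergic, 0 to 4), and 2 with the block (mature against immature, 0 to 0). The cause of these shifts was not tested. For the fits without 1 aliquot or library the share over all genes was not taken. Library totals moved the median of all genes by −0.174 in the lineage comparison, in which the median of the members was then 0.05.

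Mean shares that moved by more than the aliquots' spread were those of radial glia-like cells with the members in the clustering (23.2% in Illumina, 25.05% in Nanopore), the Nanopore library share (22.12% without paralogs, 22.09% for all barcodes, 22.34% thinned, 22.07% without doublets, 22.20% without microglia or vessel cells) and the Nanopore share of immature glutamatergic-like neurons (22.01% without paralogs, 21.85% thinned, 22.17% with the members in the clustering). Uncalled log2 fold changes turned positive for Rpl7l1 (GABAergic), to 0.189 when thinned, and for Rpl7 (GABAergic), to 0.0167 with the members in the clustering and 0.0122 with cells of the same class in both. Leaving out 1 aliquot moved Rpl7 between −0.269 and 0.0138, and Rps27 between −0.806 and 0.0123 (glutamatergic) and between −0.765 and 0.165 (GABAergic). The Rpl22l1 isoform shares of mature GABAergic-like neurons rest on 18 and 78 Nanopore UMIs.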
